A study of Mus musculus with 10 samples.

Results

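The genes described here are 49 members of the DNA replication fork and its nucleotide supply, listed by gene symbol. They include 6 subunits of the origin recognition complex, 3 licensing genes (Cdc6, Cdt1 and its inhibitor geminin) and 6 subunits of the MCM helicase ring. A further 6 genes act in helicase activation, and 11 are DNA polymerase and primase subunits. The clamp and its loader have 6 genes and the single-strand binding protein has 3 subunits. The list ends with 2 genes of Okazaki fragment joining and 6 enzymes that make deoxynucleotides. Of the 49 members, 48 had a row among the 24608 gene symbols of the count table. Fen1, the flap endonuclease, was not analysed here. Their expression was measured in muscle stem cells (MuSCs, the satellite cells of skeletal muscle) from 5 control and 5 Trpm7 cKO samples, each a library of 3000 sorted cells. Control mice were Trpm7+/+; Pax7CreERT2/+; Rosa26YFP and Trpm7 cKO mice were Trpm7 flox/flox; Pax7CreERT2/+; Rosa26YFP, all adults of 7 to 20 weeks on a C57BL6 background. Both groups carried the same Cre, which the Pax7 locus drives and tamoxifen (TMX) activates, and the study's methods give TMX daily on 5 days. Both were injured with cardiotoxin (CTX), a snake toxin that destroys myofibers, and YFP+ cells were sorted 3 days after injury. The YFP reporter marks cells in which the Cre has acted and their descendants, and does not itself report loss of Trpm7, an ion channel fused to a kinase. Trpm7 cKO replicates 4 and 5 share an identifying number in their labels whose meaning is not given in the sources used here, so these samples may not be independent. The labels do not say that each library came from its own mouse, and p-values therefore measure the spread between these samples.

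A chromosome is copied from many origins. The origin recognition complex marks them, and Cdc6 and Cdt1 load the MCM ring onto the DNA before S phase, while geminin (Gmnn) holds Cdt1 in check after S phase begins. Cdc45 and the GINS complex then turn the ring into a moving helicase, primase and the polymerases copy the strands, the sliding clamp Pcna keeps the polymerases on the DNA, and ligase I seals the lagging strand. Ribonucleotide reductase (Rrm1 and Rrm2), thymidylate synthase (Tyms), the dUTPase Dut and the kinases Tk1 and Dtymk supply the deoxynucleotides. Quiescent MuSCs are outside the cell cycle and enter it after injury, and transcription of many of these genes in cycling cells depends on E2F factors, whose sites lie near gene starts.

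The promoters of the members were searched because they show which sequence features the genes share and which they do not. RefSeq sequence (GRCm38.p6), from 250 bases before to 50 after each gene start, matched 41 of the 49 members by symbol with 50 start sites between them. Mcm4, Gins1, Gins2, Gins4, Prim2, Pole, Rfc2 and Gmnn were not searched. The E2F letters searched, on both strands, were TTTCCCGC, TTTGGCGC, TTTGCCGC and TTTCGCGC. At least 1 of them lay in the window of 16 of the 41 members (39.0%), against 704 of 27025 genes (2.60%) and 744 of 32851 promoters (2.26%) genome-wide; for the members, 17 of 50 promoters (34.0%) held a match. Capitals below mark the match within 30 bases of the gene's own strand. The first 4 windows belong to genes that were lower in Trpm7 cKO MuSCs, and the next 4 to genes that did not pass the test:
Mcm6, chr1:128359734-128359763, minus strand: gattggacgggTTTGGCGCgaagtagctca
Cdc6, chr11:98908002-98908031, plus strand: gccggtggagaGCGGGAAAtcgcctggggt
Cdt1, chr8:122568035-122568064, plus strand: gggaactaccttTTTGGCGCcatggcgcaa
Rfc3, chr5:151651200-151651229, minus strand: acgtcgcacgcTTTCGCGCtcgcgggaaaa
Mcm5, chr8:75109345-75109374, plus strand: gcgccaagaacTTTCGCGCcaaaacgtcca
Orc3, chr4:34614965-34614994, minus strand: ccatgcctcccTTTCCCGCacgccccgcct
Pold3, chr7:100121467-100121496, minus strand: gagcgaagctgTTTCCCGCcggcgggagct
Pole4, chr6:82652890-82652919, minus strand: ctctacccggcGCGGGAAAggggccgaaat
In Mcm5 the match overlaps a second match on the other strand, and the Rfc3 window holds 2 matches that do not overlap. The windows of Rrm2, Dut, Cdc45, Tk1 and Tyms held none of these letters. A second feature, the CCAAT box, lay in 24 of the 41 members (58.5%) against 41.06% of all genes, and TTTGAA, the cell cycle homology region letters, in 5 members (12.2%) against 20.23%. Both genes of ribonucleotide reductase held CCAAT, shown here because the genotype effect on their transcripts differed:
Rrm2, chr12:24708192-24708221, plus strand: ggtcagcggcgtCCAATgggaggcgaggcc
Rrm1, chr7:102441638-102441667, plus strand: gtccgctttcacCCAATgtggtggaaagga
A match is a run of letters and not a measured binding site. The members with and without these letters are set against their genotype effect further on.

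The libraries of the groups differed in depth and in what else they held. Totals ran from 914361 to 1097709 counts in control and from 205986 to 581121 in Trpm7 cKO samples, where replicates 3 and 5 were the smallest. The MuSC markers Pax7, at 206 ± 33.7 normalized CPM (counts scaled to the same library total) in control and 474 ± 122 in Trpm7 cKO samples (SD, n = 5 each), and Myf5, at 133 ± 23.2 and 224 ± 132, were present in every library. Of the 20 MuSC markers, 17 were tested, 9 were higher and 3 were lower, and their summed level was 4559 ± 359 CPM in control and 5911 ± 1165 CPM in Trpm7 cKO samples. The 3 lower markers, named after their values were seen, were Met (log2 fold change −1.49, edgeR adjusted p = 3.14e-06), Itga7 (−0.59, 0.00101) and Peg3 (−0.43, 0.0222). All 29 leukocyte markers tested of 40 listed were higher in Trpm7 cKO samples, and their summed level was 475 to 817 CPM in control and 1853 to 8365 CPM in Trpm7 cKO samples. Among them Ptprc (CD45) was at 8.0 ± 4.70 and 56.7 ± 26.1 normalized CPM and Cd68 at 5.87 ± 3.03 and 63.9 ± 22.5. Summed endothelial markers were at 47.4 ± 30.8 CPM in control and 389 ± 213 CPM in Trpm7 cKO samples, and Pecam1 was at 0 in 1 control library. Summed fibroadipogenic progenitor markers were at 3498 ± 681 and 4810 ± 1216 CPM. Of 7 tested among 12 listed, 5 were higher and 1 was lower. The lower marker, named after its value was seen, was Col1a2 (log2 fold change −0.69, edgeR adjusted p = 0.00771). Pdgfra, too low to test, was at 0 in 2 control libraries and at 9.68 ± 10.4 normalized CPM in Trpm7 cKO samples. In bulk samples, fewer cycling cells and less RNA per cell cannot be told apart, and the part of the other cell types in the values below was not tested beyond the covariate fit given with the calls. Trpm7 itself was at 76.9 ± 9.97 and 71.4 ± 22.0 normalized CPM (log2 fold change −0.09, edgeR adjusted p = 0.723). Counts came from transcript 3′ ends and the exons between the loxP sites are not given in the sources used here, so this value does not check the deletion.

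Replication and nucleotide genes were, as a group, lower in Trpm7 cKO MuSCs. By the median, nucleotide supply, helicase activation and licensing were furthest down, and the clamp and its loader were nearest to 0. The helicase activation and licensing medians each come from 3 tested genes, and those of licensing include the inhibitor Gmnn. The 48 members measured summed to 4060 ± 279 CPM in control and 1997 ± 594 CPM in Trpm7 cKO samples. The Trpm7 cKO libraries held, in order of replicate, 1760, 2232, 1681, 2915 and 1398 CPM, all under the lowest control library at 3648 CPM. Per 100 counts of MuSC markers, member counts were 89.8 ± 13.1 in control and 36.0 ± 18.1 in Trpm7 cKO samples, a ratio of 0.401 against 0.492 in CPM; the summed markers in the denominator were themselves 1.30 times as high in Trpm7 cKO samples.

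Of the 48 members, 41 had enough counts to be tested among 7753 genes. By edgeR's quasi-likelihood test at a Benjamini-Hochberg adjusted p below 0.05, 26 of the 41 were lower (63.4%), 1 was higher and 14 did not pass. Over all genes tested, 24.1% were lower and 24.6% were higher. With a log2 fold change beyond 1.5 as a second threshold, 3 members were lower (Rrm2, Dut and Cdc45), against 3.53% of all genes. Estimates lay below 0 for 37 of the 41, and the median log2 fold change of the members was −0.73 against −0.01 for all genes. The libraries of the groups did not overlap for 13 members, all lower in Trpm7 cKO samples; 17.9% of all genes were lower without overlap. Gins1, Gins2, Gins3, Orc1, Pold1, Pole2 and Rfc4 had too few counts for the test. With the leukocyte markers as a covariate, 2 members (Dut and Mcm4) remained lower at the threshold, the median of the members was −0.87, and the genes called lower over the whole table fell from 1866 to 135; the covariate does not overlap between the groups, so genotype and leukocyte signal cannot be told apart by this fit. Without Trpm7 cKO replicates 3 and 5, 19 members were lower and the median was −0.59.

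**Figure D1:**
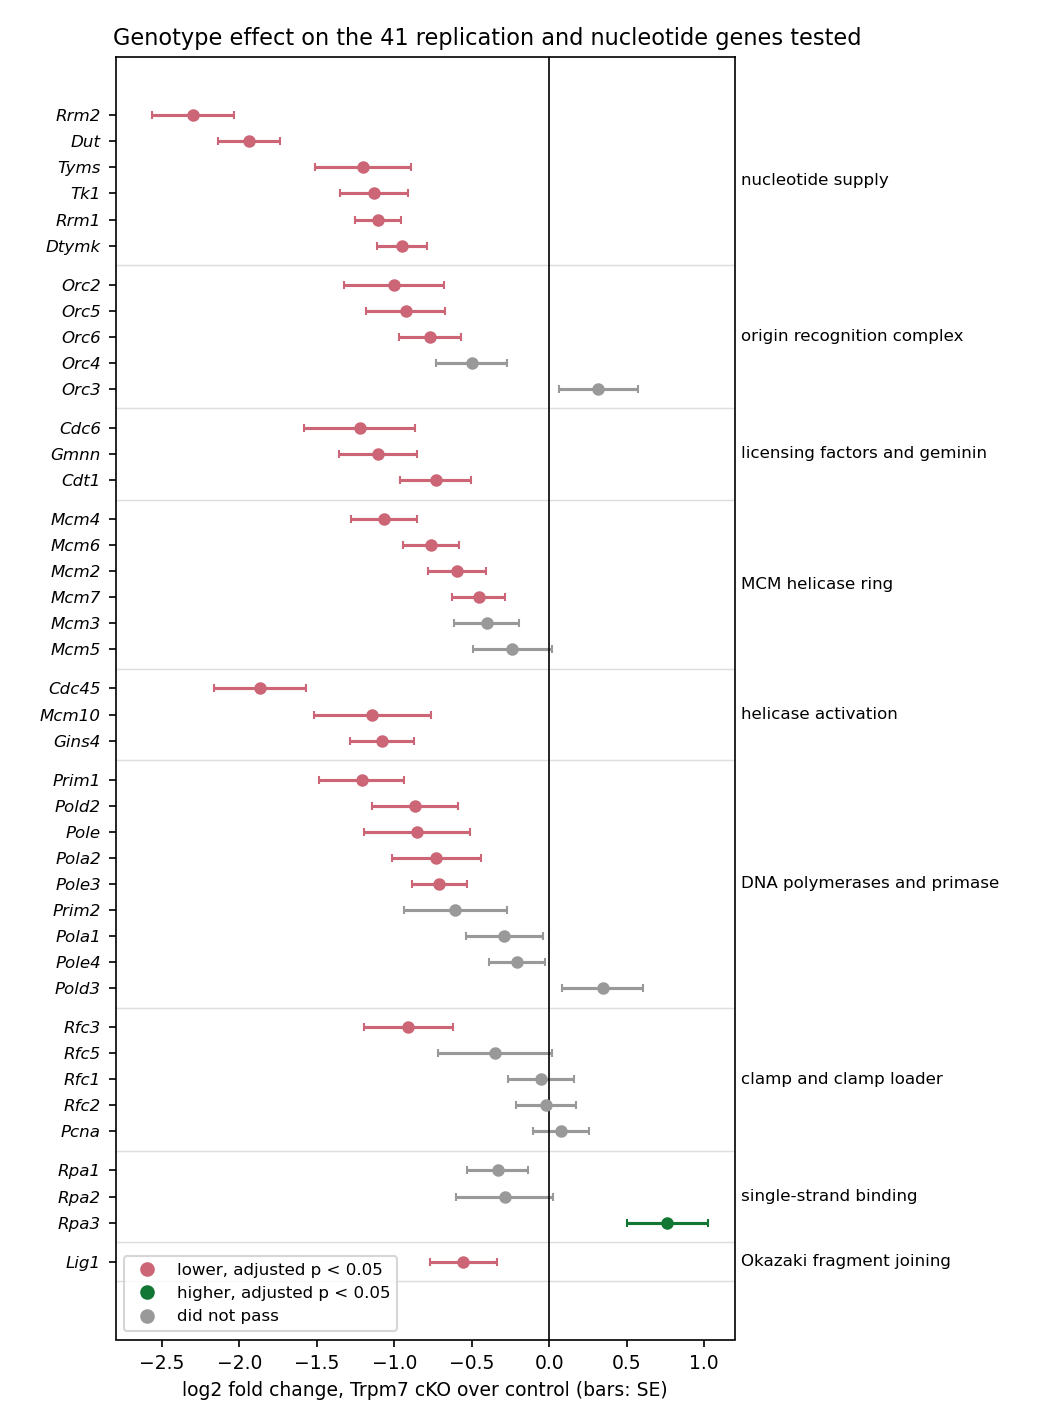
Log2 fold change of Trpm7 cKO over control MuSCs for each of the 41 members tested, grouped by role; points are edgeR estimates and bars are standard errors. Nucleotide supply, helicase activation and licensing have the lowest medians, Pcna, Rfc1 and Rfc2 of the clamp and its loader lie nearest to 0, and Rpa3 is the 1 member that passed as higher.

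All 6 enzymes of nucleotide supply were lower in Trpm7 cKO MuSCs, with a median log2 fold change of −1.17. Rrm2 encodes the small, cell cycle regulated subunit of ribonucleotide reductase, which makes deoxynucleotides from ribonucleotides. The gene lies at chr12:24708241-24714146 (GRCm38, GENCODE M21), with 10 exons, and 7.0% of its last 500 transcript bases are shared with other genes. Its normalized CPM was 1306, 864, 1370, 1436 and 874 in control replicates 1 to 5 and 181, 280, 183, 391 and 110 in Trpm7 cKO replicates 1 to 5. No Trpm7 cKO library came near the lowest control library, and the level was 20.3% of control (log2 fold change −2.30, SE 0.27, edgeR adjusted p = 5.04e-06). With the leukocyte covariate the estimate was −1.95 and did not pass (edgeR adjusted p = 0.179). Rrm2 made up 27.0 ± 4.59% of all member counts in control and 10.9 ± 2.68% in Trpm7 cKO libraries. Without Rrm2, the members summed to 2958 ± 180 CPM and 1768 ± 475 CPM, so the lower sum did not rest on this gene alone.

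Dut (chr2:125247190-125258608) hydrolyses dUTP and so keeps uracil out of DNA. It was at 543, 368, 518, 426 and 407 normalized CPM in control and at 90.5, 131, 76.7, 181 and 88.3 in Trpm7 cKO samples. The groups were far apart, at 26.1% of control (log2 fold change −1.94, SE 0.20, edgeR adjusted p = 3.02e-07). With the leukocyte covariate the estimate was −1.98 (edgeR adjusted p = 0.0387). Genotype and leukocyte signal cannot be told apart by that fit, so passing or missing it does not show which genes depend on leukocyte signal. Rrm1, the large subunit of the reductase, was at 252, 217, 248, 234 and 201 normalized CPM in control and at 107, 112, 95.0, 124 and 82.8 in Trpm7 cKO samples. Its groups were tight and separate (log2 fold change −1.11, SE 0.15, edgeR adjusted p = 4.89e-06), and its fall was smaller than that of Rrm2. Under the leukocyte covariate Rrm1 was at −0.92 and did not pass (edgeR adjusted p = 0.217).

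Thymidine nucleotides come from a salvage route through Tk1 and a new synthesis route through Tyms, which meet at Dtymk, the thymidylate kinase. Tk1 was at 81.5, 70.2, 69.7, 72.3 and 53.3 normalized CPM in control and 24.0, 40.5, 18.3, 39.8 and 27.6 in Trpm7 cKO samples. These did not overlap (log2 fold change −1.13, SE 0.22, edgeR adjusted p = 0.000247). Tyms was at 51.7, 41.3, 52.6, 30.1 and 25.5 in control and 9.24, 14.7, 14.6, 23.2 and 33.1 in Trpm7 cKO samples. Here Trpm7 cKO replicate 5, with 6 raw counts, lay above 2 control libraries (log2 fold change −1.20, SE 0.31, edgeR adjusted p = 0.00332). Sequence shared with other genes covered 16.0% of the last 500 transcript bases of Tyms. Dtymk fell from 144 ± 9.11 to 72.3 ± 16.9 normalized CPM (log2 fold change −0.95, edgeR adjusted p = 7.81e-05), without overlap.

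**Figure D2:**
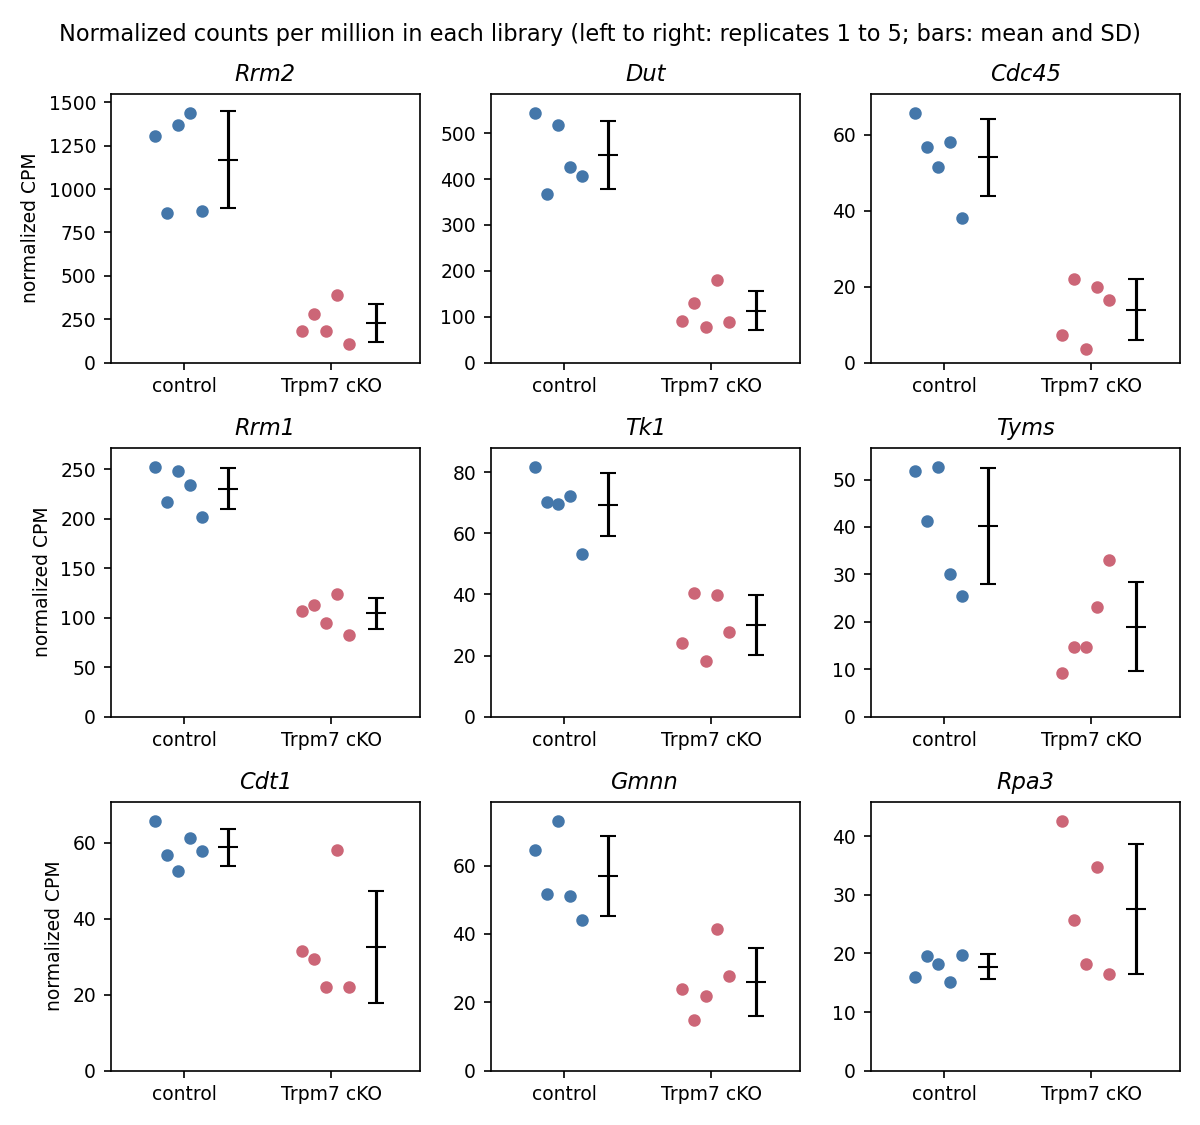
Normalized CPM of 9 members in each library, control in blue and Trpm7 cKO in red, with points from left to right for replicates 1 to 5 and bars for the mean ± SD (n = 5). Rrm2, Dut, Cdc45, Rrm1, Tk1 and Gmnn show no overlap between groups, while Trpm7 cKO replicate 4 reaches the control range for Cdt1, replicate 5 reaches it for Tyms, and the groups overlap for Rpa3.

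The ratio of 2 transcripts within a library is free of that library's scaling. Of 3 such ratios compared between the groups with a two-sided exact permutation test over 252 splits, Rrm2 to Rrm1 differed. The log2 ratio of raw counts, with 0.5 added to each, was 2.37, 1.99, 2.46, 2.62 and 2.11 in control and 0.75, 1.31, 0.93, 1.65 and 0.40 in Trpm7 cKO samples. All 5 Trpm7 cKO libraries were under the lowest control library, and the difference was −1.30 (exact p = 0.00794, the smallest this design allows; 0.0238 adjusted over the 3 ratios). In pooled counts there were 5.10 Rrm2 counts for each Rrm1 count in control and 2.37 in Trpm7 cKO samples. Both subunits were thus lower, and Rrm2 by more. Tk1 to Tyms was 0.65, 0.76, 0.40, 1.25 and 1.05 in control and 1.30, 1.40, 0.29, 0.76 and −0.24 in Trpm7 cKO samples. The Trpm7 cKO libraries lay on both sides of the control range, 2 above it and 2 below it. The difference in means was −0.12 (exact permutation p = 0.746) and became 0.11 without Trpm7 cKO replicate 5. The third ratio, of Cdt1 to its inhibitor Gmnn, is given with the licensing factors.

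**Figure D3:**
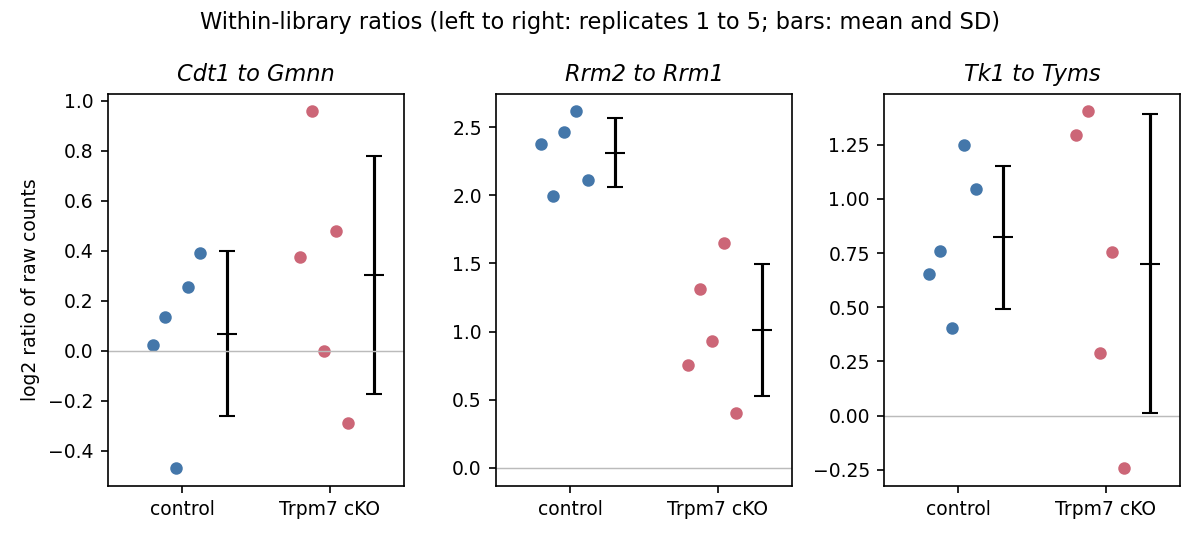
Log2 ratio of raw counts within each library for 3 gene pairs, control in blue and Trpm7 cKO in red, with points from left to right for replicates 1 to 5 and bars for the mean ± SD (n = 5). The groups are separate for Rrm2 to Rrm1, with control from 1.99 to 2.62 and Trpm7 cKO from 0.40 to 1.65, and overlap for the other pairs.

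At the origins, 3 of 5 tested subunits of the origin recognition complex were lower, Orc2 (log2 fold change −1.0, edgeR adjusted p = 0.0145), Orc5 (−0.93, 0.00500) and Orc6 (−0.77, 0.00356). Orc5 fell from 36.3 ± 6.81 to 18.7 ± 4.78 normalized CPM and Orc6 from 101 ± 9.30 to 54.5 ± 22.5, both without overlap. Orc2 had 0 counts in Trpm7 cKO replicate 5, where a count of 0 allows up to 16.6 normalized CPM, it did not pass without Trpm7 cKO replicate 2 (edgeR adjusted p = 0.0538), and its 3′ end lies opposite Nif3l1. Orc4 was at 50.0 ± 11.7 and 35.1 ± 8.27 normalized CPM (edgeR adjusted p = 0.0756) and Orc3 at 18.5 ± 3.20 and 21.9 ± 4.59 (edgeR adjusted p = 0.317), neither past the threshold.

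All 3 licensing genes, Cdc6, Cdt1 and the inhibitor Gmnn, were lower. Cdc6, the ATPase that opens the way for the MCM ring, fell from 27.2 ± 8.16 to 10.3 ± 5.85 normalized CPM (log2 fold change −1.22, SE 0.36, edgeR adjusted p = 0.00773). Its Trpm7 cKO values rest on 3, 8, 2, 11 and 1 raw counts in replicates 1 to 5. Cdt1, its loading partner, was at 65.6, 56.8, 52.6, 61.2 and 57.9 normalized CPM in control and at 31.4, 29.4, 21.9, 58.0 and 22.1 in Trpm7 cKO samples. Replicate 4 lay among the control values and the other 4 libraries lay well under them (log2 fold change −0.73, SE 0.23, edgeR adjusted p = 0.0118). Without Trpm7 cKO replicates 3 and 5, Cdt1 did not pass. Gmnn was at 64.6, 51.6, 72.9, 51.2 and 44.0 in control and at 24.0, 14.7, 21.9, 41.4 and 27.6 in Trpm7 cKO samples, with no overlap (log2 fold change −1.11, SE 0.25, edgeR adjusted p = 0.00123). The log2 ratio of Cdt1 to Gmnn was 0.02, 0.14, −0.47, 0.26 and 0.39 in control and 0.37, 0.96, 0.00, 0.48 and −0.29 in Trpm7 cKO samples. Activator and inhibitor were both lower, and a difference of 0.24 in their ratio was within the spread of the libraries (exact permutation p = 0.389).

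In the MCM ring, the hexamer at the core of the replicative helicase, estimates were below 0 for all 6 subunits and 4 passed, with a median of −0.53. Mcm4 fell from 172 ± 9.78 to 76.3 ± 39.0 normalized CPM without overlap (log2 fold change −1.07, SE 0.21, edgeR adjusted p = 0.00037). It passed with the leukocyte covariate too, in a fit that cannot tell genotype and leukocyte signal apart. Mcm6 (−0.76, edgeR adjusted p = 0.00182), Mcm2 (−0.60, 0.0113) and Mcm7 (−0.46, 0.0354) were lower with overlap. Sequence shared with other genes covered 19.4% of the last 500 transcript bases of Mcm6 and 23.0% of those of Mcm5. Mcm7 is uncertain, since 58.4% of its last 500 transcript bases are shared with Gm5487 and its end lies opposite Cops6, and it passed in 3 of the 10 fits that left out 1 library. Mcm3 was at 97.0 ± 14.7 and 71.7 ± 26.5 normalized CPM and Mcm5 at 51.8 ± 5.91 and 40.5 ± 21.7, and neither passed (edgeR adjusted p = 0.122 and 0.465). The ring's subunits act in equal number, but their transcripts were not all past the threshold, and differences between subunits were not tested.

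All 3 tested genes of helicase activation were lower, with a median of −1.14. Cdc45 (chr16:18780447-18811987), which joins the MCM ring with GINS to form the active helicase, was at 65.6, 56.8, 51.5, 58.2 and 38.2 normalized CPM in control and at 7.39, 22.1, 3.65, 19.9 and 16.6 in Trpm7 cKO samples. Every Trpm7 cKO library was under every control library, at 27.4% of control (log2 fold change −1.87, SE 0.30, edgeR adjusted p = 3.61e-05). The Trpm7 cKO values rest on 4, 12, 1, 12 and 3 raw counts, and with the leukocyte covariate the estimate was −1.17 (edgeR adjusted p = 0.461). Gins4, a GINS subunit, fell from 67.6 ± 7.43 to 29.3 ± 10.3 without overlap (log2 fold change −1.08, edgeR adjusted p = 0.000261). Mcm10, which helps to start the helicase, fell from 21.6 ± 4.83 to 8.06 ± 6.65 (log2 fold change −1.14, edgeR adjusted p = 0.0164), with 0 counts in Trpm7 cKO replicate 5, and did not pass without replicate 2 (edgeR adjusted p = 0.0580) or without replicates 3 and 5 together. Gins1, too low to test, was at 17.4 ± 6.98 normalized CPM in control and 7.43 ± 3.35 in Trpm7 cKO samples, with overlap. Gins2 (4.38 ± 0.64 and 5.07 ± 2.46) and Gins3 (6.50 ± 2.96 and 3.83 ± 4.17) were also too low to test and overlapped.

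Of the 9 polymerase and primase subunits tested, 5 were lower. Prim1, the catalytic subunit of primase, fell from 49.4 ± 6.60 to 18.1 ± 11.4 normalized CPM (log2 fold change −1.21, SE 0.27, edgeR adjusted p = 0.00106), without overlap. Its Trpm7 cKO values rest on 14, 11, 2, 19 and 1 raw counts in replicates 1 to 5. Pole3, an accessory subunit of the leading strand polymerase epsilon that also binds histones, fell from 114 ± 18.9 to 73.1 ± 15.8 (log2 fold change −0.71, edgeR adjusted p = 0.00258), likewise without overlap. Pold2 of polymerase delta (−0.87, edgeR adjusted p = 0.0135), Pole, the catalytic subunit of epsilon (−0.85, 0.0451), and Pola2 of polymerase alpha (−0.73, 0.0412) passed with overlap. The calls of Pole and Pola2 were near the threshold, and each was lost in several fits that left out 1 library. Prim2 (−0.61), Pola1 (−0.29), Pole4 (−0.21) and Pold3 (0.35) did not pass, with edgeR adjusted p from 0.141 to 0.355. Lig1, which seals Okazaki fragments, was lower at the threshold (−0.55, edgeR adjusted p = 0.0385) and passed in 4 of the 10 fits that left out 1 library.

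The clamp and single-strand binding genes had the medians nearest to 0, at −0.05 for the clamp and its loader and −0.29 for single-strand binding. Pcna, the ring that encircles DNA behind the polymerases, was at 95.1 ± 16.3 normalized CPM in control and 102 ± 22.2 in Trpm7 cKO samples (log2 fold change 0.08, SE 0.18, edgeR adjusted p = 0.745). Rfc1 (−0.05, SE 0.21) and Rfc2 (−0.02, SE 0.19), subunits of the loader that opens the clamp, did not pass, and 44.2% of the 3′ end of Rfc2 is shared with other genes. Rfc5 (−0.35) did not pass either, whereas Rfc3 fell from 40.9 ± 3.99 to 21.2 ± 12 (−0.91, edgeR adjusted p = 0.0130). A miss of the threshold does not show equal levels, and standard errors of about this size leave room for moderate change. Rpa1 (−0.33) and Rpa2 (−0.29), the larger subunits of replication protein A, did not pass, with edgeR adjusted p of 0.175 and 0.477. Rpa3, the smallest subunit, was at 15.9, 19.6, 18.2, 15.1 and 19.7 normalized CPM in control and at 42.5, 25.8, 18.3, 34.8 and 16.6 in Trpm7 cKO samples. Trpm7 cKO replicates 1, 2 and 4 were above all control libraries and the other pair lay among them (log2 fold change 0.76, SE 0.26, edgeR adjusted p = 0.0211). Rpa3 shares 38.8% of its 3′ end with 2 other genes. It did not pass without Trpm7 cKO replicate 1 or without replicate 4 (edgeR adjusted p up to 0.126). Nor did it pass under the leukocyte covariate or with scaling on MuSC markers. Without any scaling, where the median of all genes was −1.15, the Rpa3 estimate was −0.35.

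The roles varied across libraries as well as between groups. Summed nucleotide supply counts stood at 24.3, 34.0, 21.7, 44.3 and 17.6% of the control mean in Trpm7 cKO replicates 1 to 5, against 81.0 to 113% in control. Rrm2 and Dut weigh most in this sum: together they held 37.5 ± 4.88% of all member counts in control libraries. By the edgeR estimates, Rrm1, Tk1, Tyms and Dtymk were at 43.4 to 51.7% of control. Helicase activation stood at 23.9 to 65.8%, the origin recognition complex at 37.7 to 83.8% and the polymerases and primase at 55.0 to 91.7%, each under the lowest control library. Licensing genes (35.5 to 90.4%) and the MCM ring (37.2 to 101%) reached the control range through replicate 4. For the clamp and its loader (71.1 to 130%) and for single-strand binding (88.1 to 131%) replicate 4 was above every control library. Replicate 4 was the highest Trpm7 cKO library in 8 of the 9 roles, the exception being the origin recognition complex, and it also had the highest leukocyte marker sum, at 8365 CPM, and the lowest MuSC marker sum of the Trpm7 cKO libraries, at 4307 CPM. Replicate 2, with the lowest leukocyte marker sum of the Trpm7 cKO libraries, at 1853 CPM, stood at 34.0% for nucleotide supply and 73.4% for the MCM ring. Replicate 5, with the next highest leukocyte marker sum after replicate 4, at 6593 CPM, had the lowest values in both of these roles, at 17.6 and 37.2%. The part of leukocyte RNA in these sums was not tested.

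**Figure D4:**
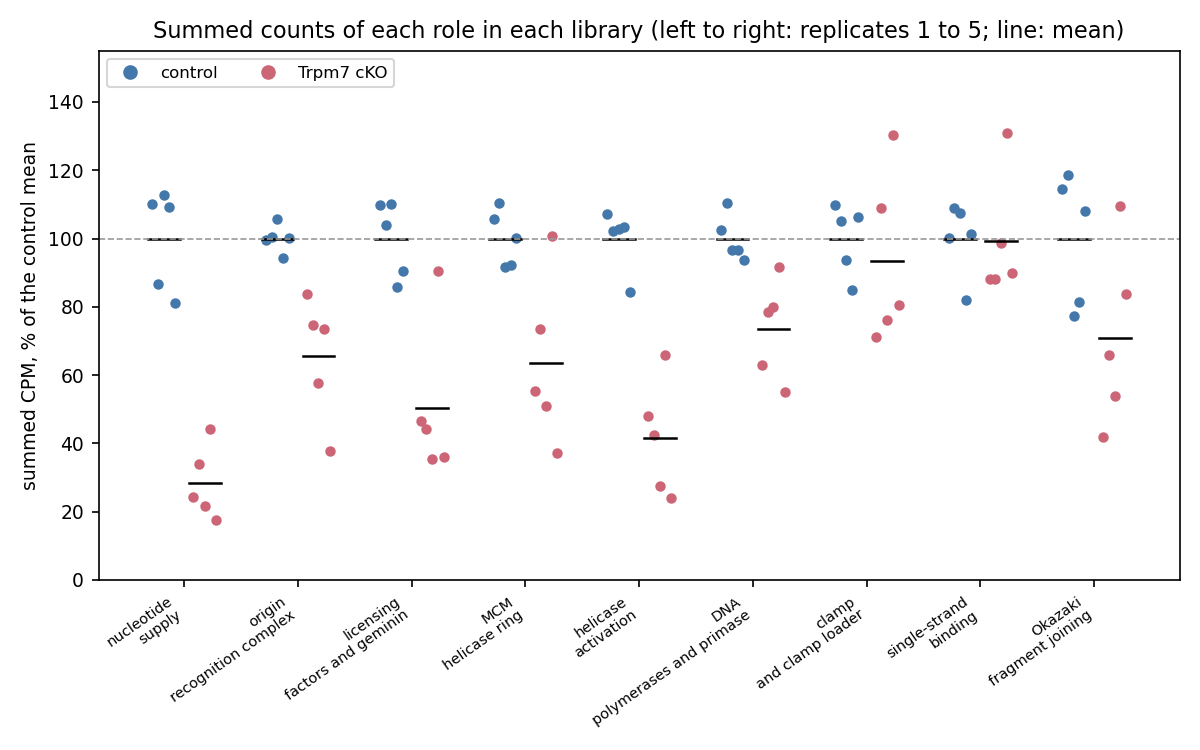
Summed CPM of each role in each library as a percentage of the control mean, control in blue and Trpm7 cKO in red, with points from left to right for replicates 1 to 5 and lines for means. Nucleotide supply has the lowest Trpm7 cKO mean at 28.4%, in a sum where Rrm2 and Dut weigh most in control. Clamp and single-strand binding means are 93.4 and 99.2%, and Trpm7 cKO replicate 4 is the highest red point in every role but the origin recognition complex.

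The members with E2F letters near their start were not those with the lowest estimates. Of the 12 tested members with a match, 6 were lower with a median log2 fold change of −0.43; of the 23 searched and tested members without one, 16 were lower with a median of −0.87. The windows printed for Mcm5, Orc3, Pold3 and Pole4 are from genes that did not pass, with estimates between −0.24 and 0.35. Mcm3 (−0.40) and Pola1 (−0.29), which also held a match, did not pass either. Rrm2, Dut and Cdc45, past both thresholds, had no match. For CCAAT, members with and without a match had medians of −0.68 and −0.73. For TTTGAA, all 3 tested members with a match (Cdc45, Mcm2 and Pold2) were lower with a median of −0.87, against 19 of 32 without one with a median of −0.72. These are descriptions over few genes with no test, and a window without a match says only that these letters are absent from it.

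Other genes of the same pathways were lower more often than higher. Of 36 tested genes among 48 other replication genes, 17 were lower and 1 was higher, with a median of −0.57. Of 27 tested genes among 32 other nucleotide supply genes, 12 were lower and 1 was higher, with a median of −0.45. These lower calls are 47.2% and 44.4% of the genes tested, beside 24.1% over all genes, where 24.6% were higher. Both lists were chosen with earlier results of these data known, so the shares describe the lists and are not independent of the data. The lowest were the histone chaperone Asf1b, at 115 ± 34.0 and 29.8 ± 13.7 normalized CPM (log2 fold change −1.88, edgeR adjusted p = 1.47e-05), the mitochondrial serine hydroxymethyltransferase Shmt2, at 365 ± 57.7 and 97.3 ± 24.9 (−1.87, 9.05e-08), and the purine synthesis enzyme Paics, at 662 ± 161 and 211 ± 86.9 (−1.59, 0.000104). The 2 genes that rose were Samhd1, which breaks down deoxynucleotides and is abundant in myeloid cells, and Pold4, a small subunit of polymerase delta. Samhd1 was at 50.4 to 60.2 normalized CPM in control and 206 to 318 in Trpm7 cKO samples (log2 fold change 2.14, SE 0.16, edgeR adjusted p = 6.21e-09). Pold4 was at 6.96 to 19.1 and 23.2 to 87.7 (log2 fold change 1.88, SE 0.32, edgeR adjusted p = 6.64e-05). Both were separate between the groups, in libraries where all 29 leukocyte markers tested were higher as well.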

How the data were processed

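CEL-Seq2 libraries, which tag transcript 3′ ends with unique molecular identifiers, were made by the authors from sorted MuSCs. Their processing notes name UMI-tools 1.1.4, Trim Galore 0.6.10, HISAT2 2.2.1, featureCounts 2.0.6 and DESeq2 1.30.1 with genome build GRCm38; strand setting and annotation release are not given in the sources used here. The deposited table holds raw counts per gene symbol, with no normalization, in 24620 rows; for repeated symbols the row with the most counts was kept, which dropped 12 rows.

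Here, genes were kept with edgeR 4.0.16 (minimum count 10, minimum total 15), scaled by TMM and fitted by genotype with the quasi-likelihood test (R 4.3.3), with Benjamini-Hochberg adjustment over 7753 genes. CPM are counts scaled to a common library total, and normalized CPM use the TMM-scaled total. Ratios were compared with exact permutation tests (scipy 1.17.1). Alternatives used DESeq2 1.42.0, limma-voom (limma 3.58.1), other scalings and filters, thinning to 205980 counts, a leukocyte covariate and left-out libraries. The edgeR fit was tested on simulated data. Gene positions and shared 3′ ends came from GENCODE M21, promoters from RefSeq. Depth limits precision in the Trpm7 cKO libraries, and limits from 0 counts cover counting error only. Every library pair within a group differed by more than counting noise. Members and lists were chosen with earlier results of these data known. All 49 members could be named, with values per library for members past both thresholds, the called rise and the genes of the ratios; of the other pathway genes the 3 lowest and up to 3 highest called estimates were named.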

Additional observations from a re-analysis of the deposited data

Results flagged for a closer look

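Across 90 groups of 5 libraries (41 members, the member sum and 3 ratios, in each genotype), 4 held a library far from the other 4, and chance alone marks about 1 group in 20. In control MuSCs, Rfc5 was at 25.5 normalized CPM in replicate 5 against 14.9 to 16.1 in the others, Cdc6 at 13.1 in replicate 4 against 27.8 to 33.2, and Rpa1 at 59.0 in replicate 3 against 43.8 to 47.5. In Trpm7 cKO MuSCs, Cdt1 was at 58.0 in replicate 4 against 21.9 to 31.4. Without control replicate 4 or Trpm7 cKO replicate 4, Cdc6 and Cdt1 still passed as lower.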

How the results depend on the processing

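The 26 members called lower became 22 to 29 under DESeq2, limma-voom, RLE factors, library totals alone, MuSC marker scaling and no filter (29 of 48 tested), and 38 without scaling. Over all genes the lower share was 20.4 to 23.6% under the first 4 of these, 31.4% with MuSC marker scaling, 12% with no filter and 66.6% without scaling. The member calls fell to 14 of 23 members tested at a minimum count of 30, to 3 of 16 after thinning to the smallest library (Dut, Rrm1 and Rrm2) and to 2 with the leukocyte covariate, where 27.6%, 10.3% and 1.74% of all genes were lower. Members lower past both thresholds numbered 5 with MuSC marker scaling and 29 without scaling, where the median was −1.86 against −1.15 for all genes. MuSC marker scaling moved the median of all genes to −0.30. The count of higher members was 0 with MuSC marker scaling, without scaling, without a filter, at a minimum count of 30, after thinning, with the replicate block and with the leukocyte covariate.

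Leaving out 1 library at a time gave 22 to 26 lower, 0 to 1 higher and 3 to 5 past both thresholds (5 without Trpm7 cKO replicate 4, which added Mcm10 and Cdc6), and medians from −0.83 to −0.65; 20 of the 26 lower calls held in each such fit the gene entered. The ratio of Trpm7 cKO to control member CPM, 0.492, ranged from 0.435 to 0.529. The Rrm2 to Rrm1 difference ranged from −1.46 to −1.15, that of Cdt1 to Gmnn from 0.07 to 0.38 and that of Tk1 to Tyms from −0.30 to 0.11.

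After thinning, Cdt1 to Gmnn was −0.043. Leaving out Trpm7 cKO replicates 3 and 5 was a choice made after seeing the data. Tk1 to Tyms was then 0.33 and Cdt1 to Gmnn 0.54 (exact permutation p = 0.0714). Rrm2 to Rrm1 was −1.08 (exact permutation p = 0.0357, the smallest the test allows without these libraries). Pole was at 0.25 with the leukocyte covariate. Without scaling, which leaves library depth uncorrected, Pcna was at −1.08 and Rpa3 at −0.35, beside a median of −1.15 for all genes. The cause of the other shifts was not tested.

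Replicate numbers gave no pairing: the correlations of same-numbered libraries ran from −0.12 to 0.18. With the replicate block, 24 members were lower, 3 past both thresholds and 0 higher, with a median of −0.80.

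The smallest library, with 205986 counts, limits low genes such as Cdc45, Mcm10, Orc2, Cdc6 and Prim1.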
